A study of Mus musculus with 41 samples.

Results

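The genes described here are 10 genes used to recognise pericytes, followed across 41 mouse mammary tumors. They are Pdgfb, Pdgfrb, Cspg4, Notch3, Rgs5, Des, Kcnj8, Abcc9, Higd1b and Ndufa4l2, and they were taken by symbol from the 47480 genes of the table of normalized values. All 10 were present, all 10 had a mean of at least 10 over the tumors, and none was at or under the level of 3 reads in any tumor. Each was set beside Pecam1, which encodes an adhesion protein of endothelial cells and stands here for endothelial RNA. PLK2null-732, PLK2null-733, PLK2null-743, PLK2null-7763 and p53null-T11 are named throughout, because they stood apart in earlier results of these data. The labels give them no group of their own, so their values are a description with no test. The 3 tumors, below, always means PLK2null-732, PLK2null-733 and PLK2null-743, whose values are given in this order, and p53null-T11 is called T11.

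Pericytes are mural cells that wrap the endothelial tube of capillaries within a shared basement membrane. Endothelial cells secrete PDGF-B, which binds the receptor PDGFR-beta on pericytes and recruits them to growing vessels, and Notch ligands on the endothelium engage the NOTCH3 receptor on mural cells. In tumors the coverage of vessels by pericytes is often loose and uneven. No single gene of the list is restricted to pericytes, and smooth muscle cells, fibroblasts and some tumor cells can express several of them.

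RNA was sequenced from 28 Plk2-/-; p53-/- tumors (PLK2null) and 13 p53-/- tumors (p53null), with 1 library per tumor. All came from the Balb/c strain and lack p53 in both groups, and both were grown without treatment in mammary fat pads of syngeneic mice, whose vessels can come from the wild-type host. The PLK2null line was made by transplanting mammary epithelial cells of Plk2-/-; p53-/- mice into cleared fat pads, and tumors were kept by serial transplantation. No source used here says which of the 41 tumors arose separately, so a p-value measures only the spread between these tumors. The animals' ages are not given in the sources used here.

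The deposited values are linear, with the upper quartile of the nonzero values set to 1000 in every tumor. Depth was 29409634 to 70868272 fragments, as implied by the step between low values, and the floor of 3 reads was 1.16 to 2.45. The titles of all 13 p53null libraries carry a series name that no PLK2null title carries, so that library series and genotype cannot be told apart. Plk2 itself lay between 36.6 and 553 in the PLK2null tumors and between 186 and 8028 in the p53null tumors, the lowest of which was the library labelled p53null-7435. Below, a gene is called in a test when its limma p-value, Benjamini-Hochberg adjusted over all genes tested, was below 0.05. The other 24 and the other 12 are the PLK2null and p53null tumors without the named ones.

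Kcnj8 and Abcc9 encode the pore and the sulfonylurea-receptor subunit of a potassium channel closed by ATP. They are neighbours on the minus strand of chromosome 6 in GRCm38, Kcnj8 at chr6:142564837-142571614 and Abcc9 at chr6:142587862-142702315, with a gap of 16.2 kb between them. Their promoters are printed because this pair was the most alike among the 10 genes across tumors, as described further on. Each run holds the 250 bases before and 50 bases after the RefSeq start on GRCm38.p6, read 5′ to 3′ on the minus strand (chr6:142571565-142571864 and chr6:142702225-142702524), and capitals mark TGGGAA, the core recognised by RBPJ, the DNA-binding partner of Notch.

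Kcnj8: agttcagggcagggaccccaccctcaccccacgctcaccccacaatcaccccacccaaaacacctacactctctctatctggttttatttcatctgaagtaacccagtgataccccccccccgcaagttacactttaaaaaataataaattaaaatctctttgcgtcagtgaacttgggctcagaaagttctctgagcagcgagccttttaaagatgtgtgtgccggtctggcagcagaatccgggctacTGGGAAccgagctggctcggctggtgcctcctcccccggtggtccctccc

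Abcc9: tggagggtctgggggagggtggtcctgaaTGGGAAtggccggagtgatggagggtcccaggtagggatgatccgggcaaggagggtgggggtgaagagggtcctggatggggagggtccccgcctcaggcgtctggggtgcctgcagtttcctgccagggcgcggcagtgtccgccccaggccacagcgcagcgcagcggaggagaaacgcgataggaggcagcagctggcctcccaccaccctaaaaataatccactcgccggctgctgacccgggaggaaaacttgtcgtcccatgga

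The core was searched on both strands in the promoters of the 6 members with an entry, Rgs5, Cspg4, Kcnj8, Abcc9, Notch3 and Des. It occurred in 2 of these 6, Kcnj8 and Abcc9, and in 25.6% of all 32851 promoters. A GC box, GGGCGG, occurred in 4 of the 6 and in 35.7% of all promoters, with 1 in Abcc9, 2 each in Des and Cspg4, 4 in Notch3 and 0 in Kcnj8 and Rgs5. An E-box, CANNTG, occurred in 4 of the 6 and in 72.3% of all, and the CArG box of smooth muscle genes in 0 of the 6 and 1.63% of all. A match is a run of letters and was not tested as a binding site.

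In the 3 tumors every one of the 10 genes was above all 24 other PLK2null tumors, which held for 12% of all 17208 genes with a mean of at least 10. PLK2null-732 and PLK2null-733 were among the pairs of libraries closest to each other over all genes (median chi-square, 6.99). No source used here says whether they arose separately, so the 3 may not be separate observations. The mean of the 3 over the median of the 24 ran from 2.50-fold for Notch3 to 24.8-fold for Abcc9, beside 32.3-fold for Pecam1. On the log2(value + 1) scale the median difference of the 10 genes was 2.94, against 0.02 over all genes. In bulk RNA a larger number of cells of one type and more RNA per cell cannot be told apart. These 3 libraries also held almost no epithelial RNA. Epcam, an epithelial adhesion gene, was 87.4, 21 and 9.6 there and at least 2935 in the 24, and the summed level of 4 epithelial genes was 40.1 to 248 against 33128 to 109870. The part of this difference in the higher pericyte values was not tested.

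**Figure D1:**
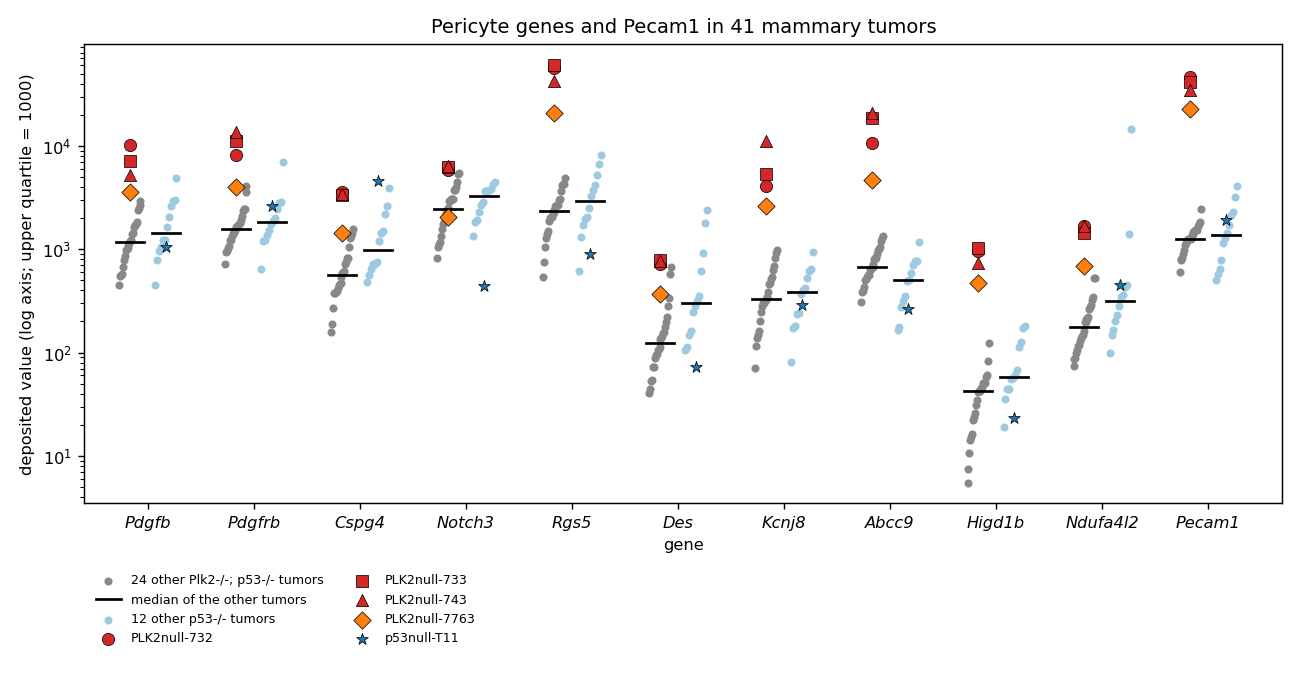
Deposited value (log axis, upper quartile of each tumor at 1000) of the 10 pericyte genes and Pecam1, 1 point per tumor, with bars for the medians of the 24 other PLK2null and 12 other p53null tumors. In red, PLK2null-732, PLK2null-733 and PLK2null-743 lie above every one of the 24 for each gene, by the smallest margin for Notch3 and Des.

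The ligand came first in the order of roles. Pdgfb, whose product endothelial cells release, was 10259 in PLK2null-732, 7062 in PLK2null-733 and 5176 in PLK2null-743, against 448 to 2902 (median, 1166) in the other 24. Pdgfrb, its receptor, was 8234, 11246 and 13518, against 719 to 4084 (median, 1583). The order of the 3 tumors was thus opposite for ligand and receptor, with PLK2null-732 highest for Pdgfb and PLK2null-743 highest for Pdgfrb. Cspg4, the proteoglycan NG2 on the pericyte surface, was 3576, 3318 and 3432 against 156 to 1564 (median, 561). Notch3, the Notch receptor of mural cells, was 5774, 6308 and 6314 against 820 to 5481 (median, 2456). The lowest of the 3 Notch3 values was 1.05 times the highest of the 24, so that this gene was separated by the narrowest margin.

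Rgs5, a brake on G-protein signalling and one of the most abundant pericyte transcripts, was 56597, 60735 and 42230 in the 3 tumors. The other 24 ranged from 543 to 4836 (median, 2340), and the lowest of the 3 was 8.73 times the highest of these. Des, the muscle-type intermediate filament desmin, was 718, 793 and 771 against 40.9 to 668 (median, 124). For Des the lowest of the 3 was 1.08 times the highest of the 24, and the separation did not hold after the libraries were rescaled by TMM (trimmed mean of M values), under which it held for the other 9 genes. Skeletal muscle RNA, another source of Des, was near 0 in these tumors, with 7 muscle genes summing to 13.1 to 22.9 and Myh1, Myh4 and Myod1 listed at 0 in all 3. Which cells supplied the Des RNA was not tested.

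Both channel genes had large differences. Kcnj8 was 4080, 5390 and 11166 in the 3 tumors against 70.5 to 987 (median, 328). Abcc9 was 10590, 18613 and 20921 against 311 to 1353 (median, 675). Both were highest in PLK2null-743, which had the lowest Pecam1 of the 3. Higd1b, which belongs to a family of hypoxia-induced mitochondrial proteins, was 961, 1019 and 730 against 5.52 to 124 (median, 42.0). Ndufa4l2, a mitochondrial protein induced by HIF-1, was 1668, 1418 and 1662 against 74.5 to 531 (median, 178). Its annotation overlaps Shmt2 on the opposite strand by 32 of its 1095 exon bases, and the kit is not stated to mark strand. Shmt2 was 1718, 1684 and 2205 in the 3 tumors, with a median of 2147 in the 24. The part of Shmt2 reads in the Ndufa4l2 values was not tested.

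PLK2null-7763 lay between the 3 tumors and the rest. It was above all 24 for 6 of the 10 genes, against 11.1% of all genes, and below the 3 tumors for every one of the 10. It was below all 24 for 0 of the 10, against 4.47% of all genes. Its Rgs5 was 20731, its Abcc9 4687, its Pdgfb 3610, its Kcnj8 2609, its Ndufa4l2 693 and its Higd1b 472, all outside the range of the 24. For the receptors and structural genes it fell inside that range. Its Pdgfrb of 3987 and its Cspg4 of 1447 were each above 23 of the 24, its Des of 371 above 22 and its Notch3 of 2040 above 8. Its Pecam1 was 22792. Epithelial RNA was low in PLK2null-7763 too, but not near 0 as in the 3 tumors. Epcam was 4250, above 2 of the 24, the other 3 epithelial genes were below all 24, and the 4 summed to 12794. The median difference of the 10 genes from the 24 was 1.78 on the log2 scale, beside 0.18 over all genes (1.56 and -0.03 after TMM rescaling).

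T11 was inside the range of the other p53null tumors for 7 of the 10 genes. It was below all 12 others for 2 of the 10 genes, Notch3 at 442 against 1344 to 4453 and Des at 72.3 against 105 to 2404, as were 17.1% of all genes. It was above all 12 for 1 gene, Cspg4, at 4534 against 476 to 3890, as were 12.5% of all genes. Rgs5 was 896, above 1 of the 12, whose values ran from 609 to 8207. Abcc9 was 263, above 2 of the 12, and Higd1b 23.4, above 1. Pdgfrb at 2627, Ndufa4l2 at 452, Pdgfb at 1047 and Kcnj8 at 290 were inside the range of the 12. Pecam1 was 1934 in T11 against 500 to 4114. In the same library Vim, a filament gene of mesenchymal cells, was 108640, Pdgfra, a fibroblast receptor, 6442 against 150 to 4212, and the sum of 6 fibroblast genes 156670, the second highest of the 13 p53null tumors. Epcam was 81.4 against at least 8552, the 4 epithelial genes summed to 33708 against 56359 to 272600, and 4 myoepithelial genes summed to 57.5 against 265 to 137930. The part of these in the T11 values was not tested.

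Relative to Pecam1 the 10 genes differed in the 3 tumors. The 6 endothelial genes, Pecam1 included, summed to 165580 to 186500 there, against 2572 to 7743 in the 24. Which cells supplied this RNA was not tested, so the ratio is not a measure of pericyte cover per vessel. Of the 10, 6 had a ratio to Pecam1 below all 24 other PLK2null tumors in each of the 3, where 87.1% of all genes did, since Pecam1 itself was so high. These were Pdgfrb, Pdgfb, Cspg4, Notch3, Des and Ndufa4l2, whose mean ratio was between 0.0854 times (Notch3) and 0.266 times (Ndufa4l2) the median of the 24. Rgs5, Kcnj8 and Higd1b stayed inside the range of the 24 in all 3 tumors. The ratio was at or above the lowest of the 24 in all 3 tumors for 10.6% of all genes. The mean ratio was 0.895 times the median of the 24 for Higd1b, 0.759 for Rgs5 and 0.635 for Kcnj8. Abcc9, at 0.694, was inside the range in 2 tumors and below it in PLK2null-732. In PLK2null-7763 Rgs5, Kcnj8 and Higd1b were likewise inside the range.

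**Figure D2:**
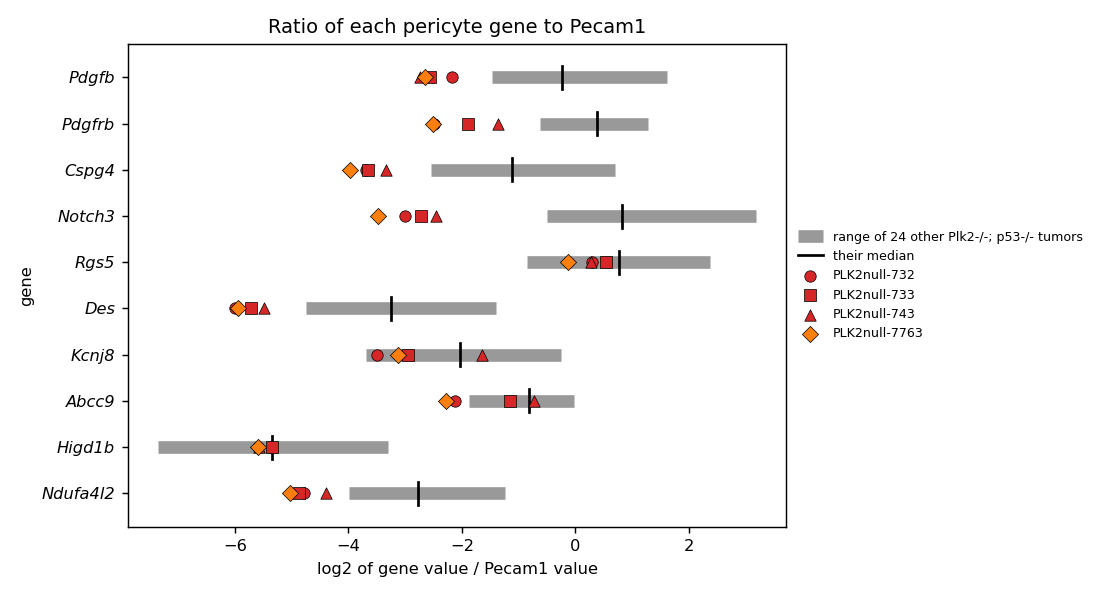
log2 ratio of each pericyte gene to Pecam1, with grey bars for the range and black ticks for the median of the 24 other PLK2null tumors, and symbols for PLK2null-732, PLK2null-733, PLK2null-743 and PLK2null-7763. The symbols lie within the bars for Rgs5, Kcnj8 and Higd1b and to the left of them for Pdgfb, Pdgfrb, Cspg4, Notch3, Des and Ndufa4l2.

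Across the other 36 tumors, 4 of the 10 genes rose with Pecam1, where 2.98% of 17028 genes did (3.78% in either direction and 0.799% negative). The fit used limma on the log2 scale with the genotype as a term. Pdgfrb had a slope of 0.73 ± 0.12 (SE, n = 36, adjusted p = 0.000376), so a doubling of Pecam1 went with 0.73 log2 units more Pdgfrb. The slope was 0.76 ± 0.18 for Rgs5 (adjusted p = 0.0159), 0.56 ± 0.15 for Abcc9 (adjusted p = 0.0247) and 1.01 ± 0.27 for Ndufa4l2 (adjusted p = 0.0279). The other 6 did not pass. Kcnj8 (0.61) and Des (0.61) had slopes of similar size with adjusted p-values of 0.116 and 0.249, and Higd1b (0.41), Pdgfb (0.32), Cspg4 (0.20) and Notch3 (0.08) had smaller ones. The 95% interval was -0.28 to 0.43 for Notch3 and -0.10 to 0.74 for Pdgfb. The median slope was 0.58 over the 10 genes and 0.02 over all genes.

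The call of Pdgfrb held without the 2 tumors whose Pecam1 was farthest from the median (0.68, adjusted p = 0.0119) and without p53null-10151 (0.76, adjusted p = 0.000687). The other 3 calls depended on single tumors or pairs. Without p53null-10155 and p53null-2153L, these 2 farthest tumors, Rgs5 (0.66, adjusted p = 0.164) and Abcc9 (0.42, adjusted p = 0.281) were no longer called, leaving 2 of 10. Ndufa4l2 was not called without p53null-10151 (0.63, adjusted p = 0.0890). With the PLK2null tumors restricted to 6 picked by tumor number and here called primary, 0 of 10 were called by limma. These 6 were PLK2null-7747, PLK2null-7748, PLK2null-7749, PLK2null-7750, PLK2null-7753 and PLK2null-7764. The slopes of Pdgfrb (0.66) and Rgs5 (0.77) were still close to those over all 36.

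**Figure D3:**
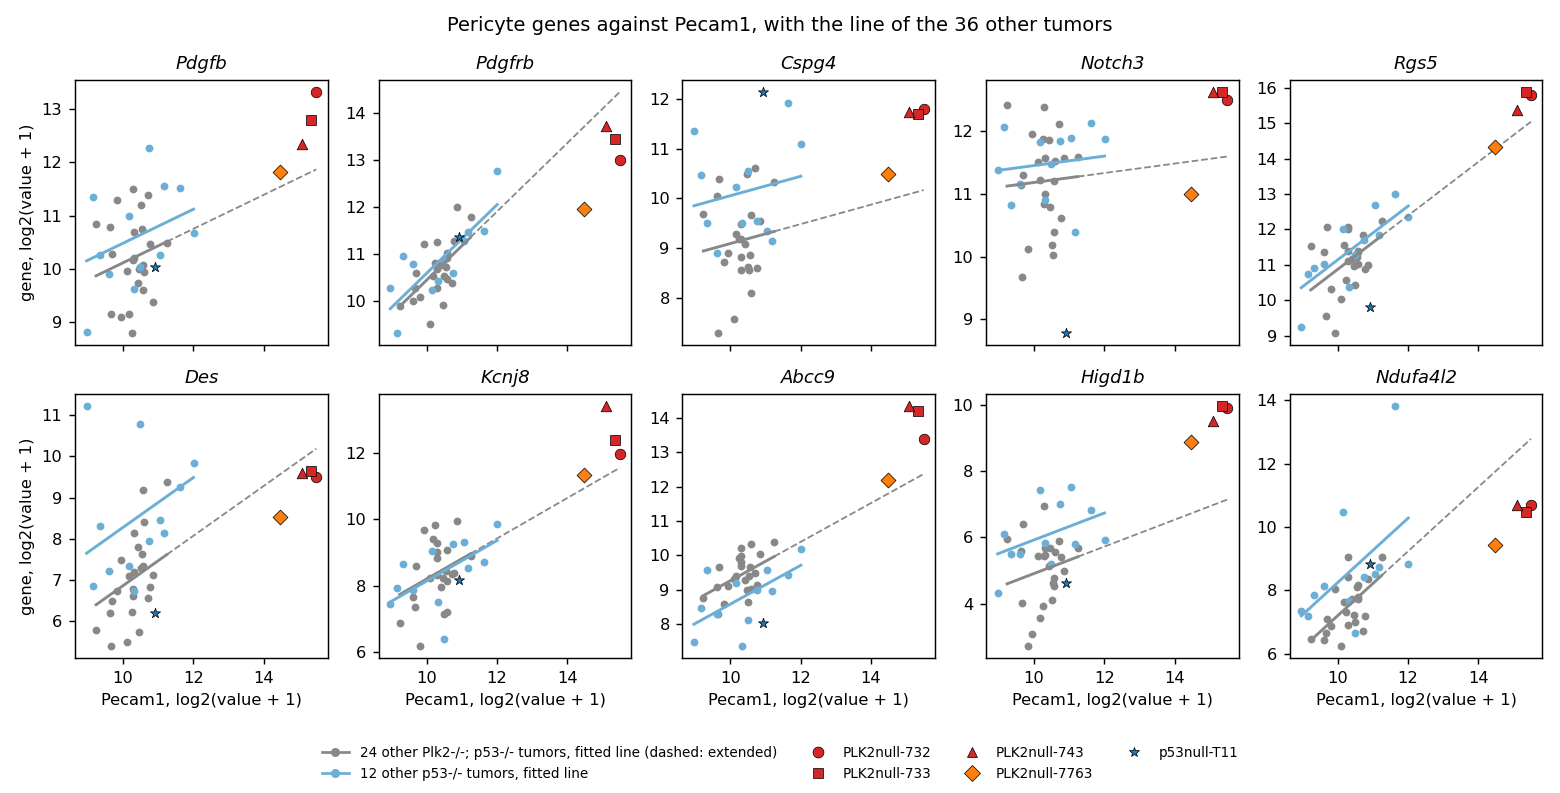
log2(value + 1) of each pericyte gene against that of Pecam1, 1 point per tumor, with the common slope fitted to the 36 other tumors drawn for each genotype and extended as a dashed line to the named PLK2null tumors. Higd1b lies above the line in PLK2null-732, PLK2null-733, PLK2null-743 and PLK2null-7763, and Notch3 far below it in T11.

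The fitted line was extended to the named tumors as a description, although the Pecam1 values of the 4 named PLK2null tumors lie far outside the range of the fit. Rgs5 was 0.63 to 0.96 log2 units above the line in the 3 tumors and 0.07 above it in PLK2null-7763, all within the residuals of the 36 tumors (-1.73 to 1.43). Higd1b was 2.53 to 2.91 above it in the 3 tumors and 2.15 in PLK2null-7763, beyond the largest residual of 1.93. Abcc9 was 1.90 and 2.22 above it in PLK2null-733 and PLK2null-743 (largest residual, 1.36), Cspg4 1.56 to 1.66 in the 3 tumors (1.55) and Kcnj8 2.13 in PLK2null-743 (1.53). Ndufa4l2 was -2.16 from the line in PLK2null-733 and -2.31 in PLK2null-7763, below the lowest residual of -2.09. Pdgfrb, the gene with the smallest adjusted p, was below the line in each of them, by -0.44 to -1.45 in the 3 and by -1.75 in PLK2null-7763, and beyond the lowest residual of -1.02 in PLK2null-732 and PLK2null-7763. T11, whose Pecam1 lay inside the range, was -2.73 from the line for Notch3, -2.63 for Des and -2.03 for Rgs5, each beyond the lowest residual, and 1.91 above it for Cspg4.

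Within the genotypes, correlations with Pecam1 were computed for 20 gene and genotype combinations, with permutation p-values that are not adjusted. In the 24 PLK2null tumors Pdgfrb had r = 0.624 (rho = 0.590, permutation p = 0.00112), Des r = 0.617 (rho = 0.609, permutation p = 0.00145), Ndufa4l2 r = 0.578 (rho = 0.536, permutation p = 0.00317) and Abcc9 r = 0.529 (rho = 0.438, permutation p = 0.00772). In the 12 p53null tumors Rgs5 had r = 0.824 (rho = 0.825, permutation p = 0.000900) and Pdgfrb r = 0.803 (rho = 0.804, permutation p = 0.000830). Abcc9 had r = 0.587 there (rho = 0.490, permutation p = 0.0473). All these permutation p-values are those of r, by which Pdgfrb and Abcc9 had an unadjusted p below 0.05 in both genotypes. By rho these were Pdgfrb and Ndufa4l2. For Abcc9 in the p53null tumors the permutation p of rho was 0.110. Ndufa4l2 had r = 0.529 there (permutation p = 0.0677) and rho = 0.664 (permutation p = 0.0218). The 2 tumors farthest from the median of Pecam1 were then left out of each genotype, PLK2null-7748 and PLK2null-1981 in the first and p53null-10155 and p53null-2153L in the second. In the PLK2null tumors r was then 0.481 for Pdgfrb, 0.454 for Des, 0.405 for Ndufa4l2 and 0.370 for Abcc9, of which the last 2 had permutation p-values of 0.0601 and 0.0876. In the p53null tumors it was 0.776 for Rgs5, 0.717 for Pdgfrb and 0.267 for Abcc9, so the relation of Abcc9 rested on the tumors left out. Rgs5 had r = 0.275 (permutation p = 0.192) in the PLK2null tumors, but its slope did not differ detectably between the genotypes (difference, -0.41 with a 95% interval of -1.22 to 0.40, limma adjusted p = 0.648). The slope differed between the genotypes in 0 of the 10 genes and in 0% of all genes. At an unadjusted limma p below 0.05 there were 0 of the 10 and 2486 of all genes.

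Between the genotypes, 1 of the 10 genes was called, against 39.5% of all 17208 genes (24.3% higher and 15.3% lower). Abcc9 was higher in the 28 PLK2null tumors by 1.27 ± 0.46 log2 units (SE, limma adjusted p = 0.0260). The call rested on which tumors entered. It was not made with 7 PLK2null tumors, the 6 called primary above and PLK2null-7763 (0.69, adjusted p = 0.334). Nor was it made without p53null-2153L and p53null-7435 (1.10, adjusted p = 0.0776). Without the 5 named tumors the difference was 0.62 and still called (adjusted p = 0.0327). Cspg4 (-0.81, adjusted p = 0.0814), Des (-0.97, adjusted p = 0.0823) and Ndufa4l2 (-0.75, adjusted p = 0.214) had lower means in the PLK2null tumors without passing. After TMM rescaling, Cspg4 (-0.94, adjusted p = 0.0365) and Des (-1.10, adjusted p = 0.0467) passed. For Pdgfb the difference was -0.02 with a 95% interval of -0.73 to 0.69, for Pdgfrb 0.08 (-0.57 to 0.74) and for Notch3 0.07 (-0.50 to 0.64). Over all genes 4175 were called higher and 2627 lower, and after TMM rescaling 3309 higher and 3597 lower, while the median over all genes moved from 0.10 to -0.03. The signs of Pdgfrb and Notch3 changed under TMM, with values of -0.04 and -0.06.

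Without the 5 named tumors, 5 of the 10 genes were called, against 43.4% of all genes. Besides Abcc9 these were Des, lower by -1.48 (adjusted p = 0.00429), Cspg4, by -0.98 (adjusted p = 0.0105), Higd1b, by -1.06 (adjusted p = 0.0137), and Ndufa4l2, by -1.15 (adjusted p = 0.0312). The call of Ndufa4l2 rested on p53null-10151, without which the difference was -0.67 (adjusted p = 0.0769) over the other 35 tumors and -0.32 (adjusted p = 0.557) with the named tumors kept. Without p53null-2153L and p53null-7435 in place of it, Des remained called at -0.97 (adjusted p = 0.0388) and Abcc9 was not (0.42, adjusted p = 0.157). Rgs5 moved from 0.39 to -0.34 without being called in either fit.

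**Figure D4:**
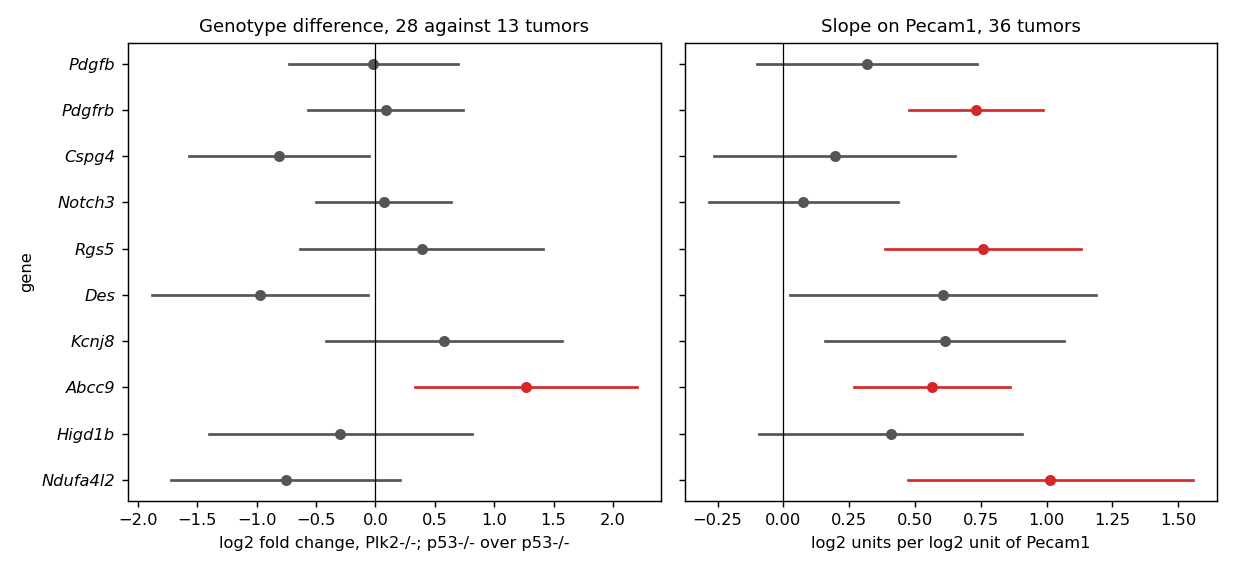
Left, log2 fold change of each pericyte gene, 28 PLK2null over 13 p53null tumors. Right, slope on Pecam1 over the 36 other tumors. Points are limma estimates, lines 95% intervals, and red marks an adjusted p below 0.05, which Abcc9 reached on the left and Pdgfrb, Rgs5, Abcc9 and Ndufa4l2 on the right.

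Single p53null tumors set the upper end for several genes. Ndufa4l2 was 14532 in p53null-10151, the highest of all 41 tumors, and at most 1415 in the other p53null tumors. In the same library the hypoxia genes summed to 155110, the highest of the 13, and Car9, the carbonic anhydrase induced by HIF-1, was 38830 against a median of 457 in the 12 p53null tumors other than T11. Shmt2 was 4220 there, below Ndufa4l2 in this tumor alone of the 41. Rgs5 (8207) and Notch3 (4453) were also highest among the p53null tumors in p53null-10151. Des was 2404 in p53null-2153L and 1772 in p53null-7435, and at most 918 in the other p53null tumors. The 7 skeletal muscle genes summed to 36939 and 26978 in these 2 libraries, against a median of 218 over the 12 p53null tumors other than T11, these 2 included. The part of hypoxia, of Shmt2 reads or of muscle in these values was not tested. Without both libraries the genotype difference of Des was -0.48 (adjusted p = 0.398).

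Among the 24 other PLK2null tumors, Higd1b had the highest ratio of highest to lowest value, from 5.52 in PLK2null-1987 to 124 in PLK2null-1971. Kcnj8 was 682 to 987 in PLK2null-7750, PLK2null-1984, PLK2null-1985 and PLK2null-1986 and at most 629 in the other 20, a set chosen after the values were seen. The share of all genes that separated these 4 from the other 20 was not computed, so this is not shown to be particular to Kcnj8. Higd1b was 7.42 to 30.9 and Pdgfb 448 to 665 in these 4, with medians of 43.0 and 1324 in the other 20. Libraries within this set were also among the pairs closest to each other over all genes. PLK2null-7750, for which Kcnj8 was 823, had the lowest Rgs5 of the 24, 543. High Kcnj8 and low Rgs5 therefore occurred in the same tumor.

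Per kilobase of exon, Rgs5 had the highest level of the 10 genes. The median of the other 24 tumors was 515 per kb for Rgs5, 304 for Notch3, 289 for Pdgfrb and 280 for Pdgfb, of which the last 3 lay close together. Levels were 163 for Ndufa4l2, 129 for Kcnj8, 80.6 for Abcc9, 49.6 for Higd1b, 47.0 for Cspg4 and 33.1 for Des. In the 3 tumors the mean was 11700 per kb for Rgs5, and 758 for Notch3. Notch3, the second highest of the 10 in the 24 tumors, was thus below Pdgfrb (2008), Pdgfb (1802), Abcc9 (1995), Kcnj8 (2700), Higd1b (1066) and Ndufa4l2 (1446) in the 3.

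The 10 genes did not move as a block over the 36 tumors. After each genotype's mean was subtracted on the log2 scale, the median Pearson r over the 45 pairs was 0.304, with 9 pairs above 0.5 and 5 below 0. These are descriptions over tumors that share a scaling and, in part, may share an origin. The highest was between the channel genes Kcnj8 and Abcc9 (r = 0.765), whose promoters are printed above. Rgs5 followed Higd1b (r = 0.704) and Abcc9 (r = 0.688), and Pdgfrb followed Abcc9 (r = 0.591). Pdgfb and its receptor gene Pdgfrb had r = -0.080, and the lowest pair was Des with Higd1b (r = -0.214). Against the mean of the 10 genes, of which each is a part, r was 0.843 for Abcc9, 0.830 for Rgs5, 0.378 for Pdgfb and 0.366 for Des, and Pecam1, which is not in the mean, had 0.645.

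The 5 other genes most like the mean of the 10, by Pearson r over the same 36 tumors, were Rgs4 (0.820), Gpr4 (0.816), S1pr3 (0.812), Tusc5 (0.811) and Sema5b (0.809). Rgs4, a relative of Rgs5, was 5235, 6627 and 5637 in the 3 tumors and 74.9 to 796 in the 24, and 63.6 in T11. S1pr3, a receptor for sphingosine 1-phosphate, was 5516, 5065 and 4283 against 110 to 662. The named tumors did not enter the correlation. The 10 genes were chosen with earlier results of these data known, however, so the values of these 5 genes there are not an independent check. Each of the 5 was above all 24 in each of the 3 tumors, as were 12% of all genes. S1pr3 is also counted among the angiopoietin and retention genes below.

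Other mural genes were mixed. Of 12, 6 were above all 24 others in the 3 tumors (Mcam, Cox4i2, Gja4, Vtn, Tbx18 and Heyl), and 0 were below. Of all genes, 12% were above. Anpep, the peptidase CD13, and Postn, a matrix gene shared with fibroblasts, had lower mean levels than the 24, by -1.05 and -1.12 on the log2 scale, without separating. Of 6 smooth muscle genes 0 were above and 1, Cnn1, was below, as were 9.55% of all genes, and Acta2 differed by -0.84. Of 6 fibroblast genes, 0 separated in either direction, but their median difference was -2.23 on the log2 scale. They summed to 6486 to 30606 in the 3 tumors (median, 6965), against 10306 to 199860 (median, 39190) in the 24. Of 6 endothelial genes all 6 were above. The 3 red blood cell genes were above as well, summing to 59903 to 233900 against 433 to 4894, and their part in the pericyte values was not tested.

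Of the genes that signal beside the 10, the 4 other PDGF genes gave 1 above, Pdgfd, a second ligand of PDGFR-beta, and 1 below, Pdgfc, a ligand of PDGFR-alpha. Pdgfd was at most 308 in the 24, and its mean was 3.47 log2 units higher in the 3 tumors. Of 11 Notch genes, 3 were above (Dll4, the endothelial ligand, by 4.36, Notch4, an endothelial receptor, by 3.97, and Heyl, a target gene, by 3.11) while Jag1, Hey1 and Hes1 overlapped. Of 9 angiopoietin and retention genes, 6 were above, with Tek, the angiopoietin receptor, at 6.61 and Tie1 at 6.39. The share above over all genes was 12%. The lists overlap, so these counts are not separate. Tie1 is also among the endothelial genes, and Heyl and Angpt1 are also among the mural genes. Angpt1, the ligand that mural cells supply, differed by -0.46, and Cdh2, the cadherin between pericyte and endothelium, by -0.49, both without separating.

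**Figure D5:**
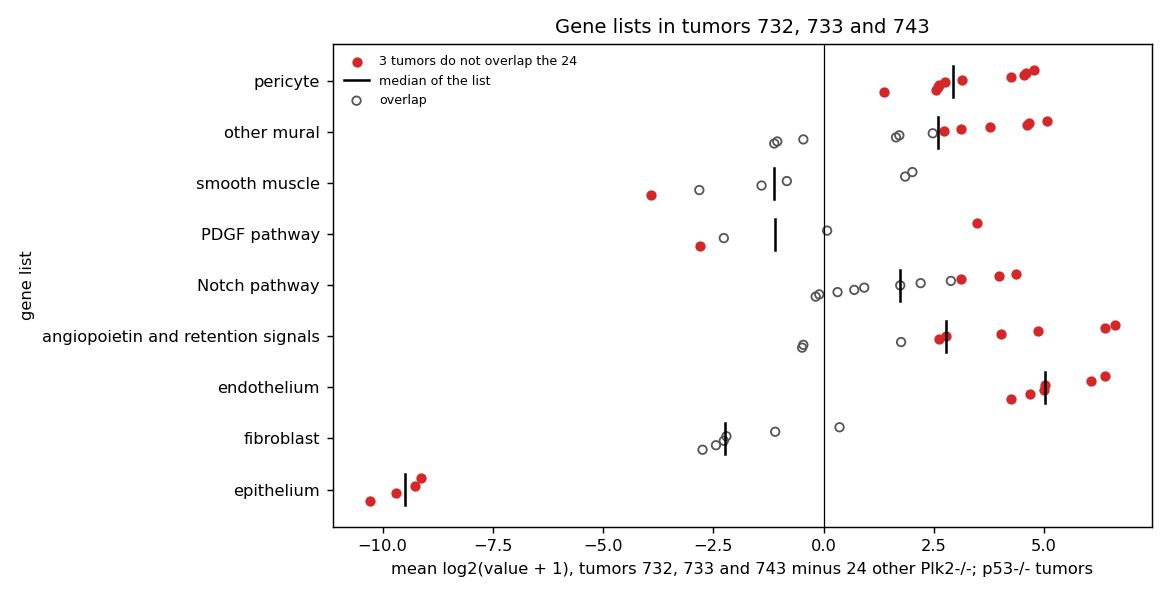
Difference in mean log2(value + 1), PLK2null-732, PLK2null-733 and PLK2null-743 minus the 24 other PLK2null tumors, 1 point per gene in 9 gene lists, with bars for list medians. Red points are genes in which the 3 tumors do not overlap the 24. All 10 pericyte and 6 endothelial genes are red on the right, and all 4 epithelial genes on the left.

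Over the 36 other tumors, the slope on Pecam1 was called positive for 2.98% of all genes. Called were 5 of 5 other endothelial genes (median slope, 0.89) and 6 of 9 angiopoietin and retention genes, with Tie1 in both lists. So were 2 of 12 other mural genes (Cd248 and Postn) and 2 of 11 Notch genes (Dll4 and Notch4). Of 6 fibroblast genes 3 were called (Dcn, Lum and Fap). The slope was called for 0 of 6 smooth muscle genes and 0 of 4 PDGF genes. Col1a1, Col1a2 and Pdgfra did not pass (adjusted p = 0.0856, 0.0715 and 0.413). Fibroblasts can also express Pdgfrb, and the part of fibroblast RNA in its slope was not tested. Between the genotypes, 1 of 12 mural genes was called (Anpep, higher) and 1 of 6 smooth muscle genes (Acta2, lower). Among the PDGF genes 1 of 4 was called (Pdgfc, lower), and of 11 Notch genes 3 (Notch1, Notch2 and Notch4, higher). The share called over all genes was 39.5%, with 24.3% higher and 15.3% lower.

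Of the relatives compared as paralogs, 8 had a mean of at least 10. Of these, 1 (Rgs4) was above all 24 in the 3 tumors and 1 (Ndufa4) below, beside 12% and 9.55% of all genes. Pdgfd and Notch4, among the signalling genes, were also above. Higd1a, the paralog of Higd1b, overlapped the 24 in the 3 tumors, with a mean difference of -0.23. Ndufa4, the paralog of Ndufa4l2, was below all 24 in the 3, with a mean difference of -1.26. Pdgfra, the other PDGF receptor, differed by -2.26 without separating, and Notch1 by -0.10.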

How the data were processed

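RNA was sequenced from both ends in 41 tumors with an mRNA kit. Per the labels, the authors aligned reads with STAR 2.7.6a to mm10 and used SAMtools, Picard 2.22.4 and Salmon 1.4.0. The authors deposited a linear signal, Salmon estimated counts divided by each tumor's upper quartile, here 1000 in every tumor. The annotation behind it is not given in the sources used here. From 77.2 to 80.5% of nonzero values lay within 0.1 read of a whole read, too few to recover counts, so no count model was used. Columns were matched to tumors by name and grouped by labelled strain.

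limma 3.58.1 in R 4.3.3 was run on log2(value + 1), which understates changes of low genes, where a gene's mean reached 10, with Benjamini-Hochberg adjustment at 0.05. The genotype fit used 41 tumors, and the fit on Pecam1 used 36 with genotype as a term. Permutation p-values used 100000 draws and are two-sided. Tests were checked on simulated data. For limma the simulated tumors were independent, so the check does not cover tumors that share an origin. Python 3.11.15 was used elsewhere. Positions came from GENCODE vM21 on GRCm38 and promoters from RefSeq on GRCm38.p6. No pair of libraries agreed within counting noise (median chi-square over genes at least 6.40), so none were merged. Floors cover counting error only.

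The 10 genes, the named tumors and all gene lists were chosen with earlier results of these data known. Genes were named by membership of these lists, and the 5 genes most alike by correlation. Lists for cardiac muscle, myoepithelium, and oligodendrocyte precursors and melanocytes were examined only as other sources of single members, and in PLK2null-732, PLK2null-733 and PLK2null-743 none of their genes was above all 24. Of 4 adipocyte genes 1 and of 7 hypoxia genes 1 were above (Fabp4 and Ankrd37), as were 12% of all genes. Alternatives were another pseudocount, other filters, a limma trend, TMM rescaling, other endothelial genes and fewer tumors.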

Additional observations from a re-analysis of the deposited data

How the results depend on the processing

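The number of the 10 genes called between the genotypes, 1, became 3 with TMM rescaling, 5 without the 5 named tumors, 0 with the 7 primary tumors, 0 without p53null-2153L and p53null-7435, and 4 without the named tumors and either p53null-10151 or these 2 (all alternatives that leave out these 3 libraries were chosen after seeing the data). The sign of the genotype difference turned without the named tumors for Rgs5 (-0.34), Pdgfrb (-0.22), Kcnj8 (-7.04e-05) and Notch3 (-0.28), with the 7 primary tumors for Rgs5 (-0.25) and Pdgfrb (-0.33), with TMM for Pdgfrb (-0.042) and Notch3 (-0.056), and without p53null-10151 for Pdgfb (0.062). Without the named tumors and p53null-10151 it turned for Rgs5 (-0.20), Pdgfrb (-0.16) and Notch3 (-0.22), and without the named tumors and the other 2 for Rgs5 (-0.58), Pdgfrb (-0.28), Kcnj8 (-0.29) and Notch3 (-0.29). The number called on Pecam1, 4, became 9 with all 41 tumors, 2 without the 2 tumors farthest from the median of Pecam1 and 0 with 6 primary tumors, and the slope of Notch3 turned with T11 kept (-0.0098) and with 6 primary tumors (-0.040). The difference of the slopes, called in none of the 10 genes under any setting, turned with all 41 tumors for Rgs5 (0.074), Pdgfrb (-0.18), Pdgfb (0.052), Notch3 (0.20) and Higd1b (0.52), without the 2 farthest tumors for Cspg4 (-0.060), and with 5 other endothelial genes for Notch3 (0.24), Higd1b (0.15) and Ndufa4l2 (0.0054). With TMM and with all 41 tumors it was called in 385 and 427 of all genes and without a filter in 2. Correlations with an unadjusted p below 0.05 numbered 4 in the PLK2null tumors and 2 without the 2 farthest tumors. The cause of these changes was not tested. The differences of PLK2null-732, PLK2null-733 and PLK2null-743 from the 24 kept their direction for all 10 genes under another pseudocount and TMM. No paired analysis was possible because the labels give no replicate numbers that tumors of the 2 genotypes share. Depth limits genes near 3 reads, which none of the 10 was.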
